A study of Mus musculus with 23 samples.

Results

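Genes of cholesterol, fatty acid, lipoprotein, steroid and bile acid metabolism were examined for chromatin accessibility at nearby NR5A2-bound regions in 8-cell mouse embryos. A region was counted when the span of a listed gene was its nearest protein-coding gene span in RefSeq (GRCm38.p6, the assembly of mm10) and lay within 50 kb of the region's midpoint. This gave 56 of the 16958 regions of the deposited table, at 22 of the 49 listed genes. The authors class 33 of the 56 as accessible and 23 as bound but not accessible. One region lies inside both Acaca and the gene model Gm11437 and was kept as an Acaca region.

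The 8-cell embryos formed 4 groups and were profiled by ATAC-seq, which reads open DNA through the insertions of a transposase. In the maternal-zygotic (mz) series, 13 embryos labelled mz_NrKO, taken ex vivo, were set against 8 embryos labelled mz_NrHet, with a library per embryo. For the inducible series, 1 pool labelled iNrKO_plus_Tam_NrKO was exposed to 750 nM 4-hydroxytamoxifen for the first 24 h of culture, and 1 pool labelled iNrKO_minus_Tam_Nrpp was not. Embryos of both pools came from dissection 30 h post hCG, as early 2-cell embryos, with 45 h of culture to follow. The labels date both mz groups to 1 day and both pools to another, so series and date cannot be told apart. The mz controls are heterozygotes and not wild type. The sources used here do not name the recombinase behind the inducible deletion, and no treated pool without the deletion was analysed, so drug and deletion cannot be told apart. No region lay inside the Nr5a2 span, so the deletion itself could not be checked. The table has 1 merged value per group and region. The whole reads recovered from it totalled 109296 in mz knockouts, 99826 in mz heterozygotes, 190091 in the treated pool and 285671 in the untreated pool. No spread between embryos can be computed. Every test and interval below compares merged libraries and covers counting error only. All 10 listed embryo marker genes, among them Pou5f1 and Klf5, had regions (40), with means of 2.67 RPKM in mz knockouts, 5.42 in mz heterozygotes, 2.34 in the treated pool and 3.63 in the untreated pool. Of 10 granulosa and cumulus cell genes 4 had a region each, with means from 0.147 to 0.734 RPKM over the same groups.

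NR5A2, also called LRH-1, is a nuclear receptor that binds an extended hormone response element as a monomer. In liver, ovary and gut it is known as a regulator of bile acid synthesis (Cyp7a1, Cyp8b1), of reverse cholesterol transport (Scarb1) and of steroid hormone synthesis (Star, Cyp11a1, Cyp19a1). Genes of cholesterol and fatty acid synthesis answer mainly to SREBP transcription factors, which INSIG and SCAP hold in or release from the endoplasmic reticulum according to sterol level. In the early embryo, lipids serve membrane growth, lipid droplets and oxidation.

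The bases before 3 start sites are shown because a bound region reached into the promoter of the gene there. RefSeq's promoter table (GRCm38.p6) held 37 of the 49 genes, and in 3 of them a bound region overlapped the 250 bases upstream of a start. The windows are chr7:143822917-143823166 at Dhcr7, chr3:129532136-129532385 at Elovl6 and chr10:76531355-76531604 at Lss, all on the plus strand and written 5′ to 3′. A second Dhcr7 window (chr7:143823149-143823398), which the same region overlaps by 23 bases and which holds none of the motifs searched, is not printed. Capitals mark the core of the NR5A2 element, searched on both strands as AAGGTCA and, more loosely, as AAGGNCA, of which every AAGGTCA is also a match. The core of the sterol regulatory element, CACNCCA, was searched likewise and was found in none of the 3 windows.
Dhcr7: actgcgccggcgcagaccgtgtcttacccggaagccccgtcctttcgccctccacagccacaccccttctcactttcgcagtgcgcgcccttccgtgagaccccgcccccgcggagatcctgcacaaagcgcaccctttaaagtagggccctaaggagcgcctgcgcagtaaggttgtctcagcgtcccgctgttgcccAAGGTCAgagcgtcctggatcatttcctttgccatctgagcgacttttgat
Elovl6: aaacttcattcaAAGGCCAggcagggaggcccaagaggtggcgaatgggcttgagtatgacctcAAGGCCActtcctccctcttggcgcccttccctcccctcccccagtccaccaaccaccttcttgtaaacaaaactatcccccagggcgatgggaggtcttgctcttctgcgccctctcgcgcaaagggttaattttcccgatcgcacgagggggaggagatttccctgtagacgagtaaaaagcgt
Lss: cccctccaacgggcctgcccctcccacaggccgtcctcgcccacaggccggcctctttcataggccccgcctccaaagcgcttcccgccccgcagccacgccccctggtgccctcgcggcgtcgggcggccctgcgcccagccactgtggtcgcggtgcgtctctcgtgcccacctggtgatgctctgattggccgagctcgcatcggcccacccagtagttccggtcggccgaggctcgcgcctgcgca
Positions are given in bases relative to the start site, negative upstream. In the Dhcr7 window 1 AAGGTCA lay at −51 to −45, and the authors' NR5A2 summit, after recentring on the motif, lay at −52. The Elovl6 window held 2 AAGGNCA matches, at −238 to −232 and at −186 to −180, with the recentred summit at −204. The Lss window held neither form, and the summit there lay at −495, outside the window. AAGGTCA was present in 4.08% of all 32851 promoter windows and in 8.21% of the 560 that a bound region overlapped. For AAGGNCA the shares were 17.5% and 27.9%, and for CACNCCA 15.6% and 11.4%. A match is a description of letters, and its absence says only that these letters are not in the window.

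The regions were spread unevenly over the roles. Fatty acid synthesis, elongation and desaturation had 27 regions at 9 genes, of which Elovl6 had 10. Sterol synthesis enzymes had 9 regions at 4 genes, fatty acid oxidation 7 at 4 genes, triglyceride and sterol ester storage 5 at 2 genes, and Scarb1 alone had 4. Insig1 had 3 and Apob had 1. No region of the table was assigned to the bile acid synthesis genes Cyp7a1 and Cyp8b1, whose nearest regions were 671 kb and 117 kb away, or to the steroidogenic genes Star, Cyp11a1, Cyp19a1 and Hsd3b1. The lipase genes Lpl, Lipa and Cel had none either. The others without one were Hmgcs1, Cyp51, Insig2, Srebf1, Srebf2, Scap, Scd2, Acsl1, Acsl3, Abca1, Abcg1, Abcb11, Apoa1, Apoe, Apom, Dgat1, Dgat2 and Gpam. Of these 27 genes, 10 had a region within 50 kb that was nearer another gene and 17 had none within 50 kb.

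In features that the choice of genes did not use, the 56 regions resembled the table as a whole in the strength of binding. Their NR5A2 CUT&RUN signal, from an antibody-directed cleavage assay of an earlier study, had a median of 4.31 RPKM against 4.15 RPKM over all regions. The highest was at Sqle region 3 (11.5 RPKM, above 96.2% of all regions) and the lowest at Acly region 1 (0.837 RPKM, above 0.430%). Regions of a gene are numbered along the chromosome. The authors had moved the summit onto an NR5A2 motif in 52 of 56 regions (92.9%), against 89.3% of all regions. The accessible class held 58.9% of the lipid gene regions and 48.5% of all regions. The position relative to genes is partly set by the 50 kb rule, so it was set against the 15423 regions within 50 kb of any protein-coding gene. Of the 56, 26 (46.4%) lay inside the gene, against 56.0% of those, and 5 (8.93%) lay within 1 kb of an end of the nearest gene, against 7.17%. These shares are descriptions, and no test was made of the differences.

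In mz knockouts the lipid gene regions were lower in sum, at 3.39 RPKM per region against 4.31 RPKM in mz heterozygotes, and their summed RPKM had a ratio of 0.786 between the groups (95% interval 0.689 to 0.896). The same ratio over all 16958 regions was 0.668 (0.663 to 0.674). The median log2 ratio of RPKM + 1 was −0.21 over the 56 regions and −0.32 over all regions. By a two-sided exact binomial test on the reads of each region, its p adjusted over the whole table by Benjamini-Hochberg, 1 of the 56 regions was lower (1.79%), against 1.73% of all regions, and 0 were higher, against 0.0236%. At an unadjusted p of 0.05, 6 were lower (10.7%, against 11.9% of all regions) and 1 was higher (1.79%, against 0.708%). Ratios were under 2/3 in 22 regions (39.3%), against 49.2% of all regions, and over 1.5 in 11 (19.6%), against 20.3%. After scaling the columns to a median log2 ratio of 0 over all regions, a shift of −0.32, the split became 14 under and 17 over, and after setting the summed ratio over all regions to 1 it became 11 under and 21 over. The ratio of sums itself was 0.982 under the first scaling and turned to 1.18 under the second. The member regions held a median of 8 reads in mz knockouts and 5 reads in mz heterozygotes, against 4 and 4 over all regions. At least 10 reads over both columns were held by 36 of the 56, against 7445 of all 16958. The 33 accessible regions had a ratio of sums of 0.720 (0.622 to 0.834), against 0.650 over all accessible regions. Of these 33, 16 were under 2/3 (48.5%, against 52.8% of all accessible regions) and 4 over 1.5 (12.1%, against 12.5%). For the 23 not accessible ones the ratio of sums came to 1.10 (0.817 to 1.49), against 0.734 over all of that class. Of these, 6 were under 2/3 (26.1%, against 45.8%) and 7 over 1.5 (30.4%, against 27.7%).

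In the treated inducible pool the lipid gene regions averaged 2.56 RPKM, against 3.54 RPKM in the untreated pool, a ratio of sums of 0.722 (0.661 to 0.790). Over all regions that ratio was 0.694 (0.690 to 0.698). The median log2 ratio of RPKM + 1 was −0.37, against −0.35 over all regions. The exact binomial test found 6 of 56 regions lower (10.7%), against 6.37% of all regions, and 0 higher, against 0.0767%. At an unadjusted p of 0.05, 11 were lower (19.6%, against 19.7% of all regions) and 0 were higher (against 0.879%). Ratios were under 2/3 in 27 regions (48.2%), against 48.6% of all regions, and over 1.5 in 4 (7.14%), against 8.57%. Scaled to a median of 0, a shift of −0.35, the split was 16 under and 8 over, and with the summed ratio set to 1 it was 14 under and 13 over. The ratio of sums was then 0.921 and 1.04. The median lipid gene region held 16 reads in the treated pool and 21.5 in the untreated pool, against 9 and 14 over all regions. More reads make a call easier to reach, and the part of read number in the share called was not tested. The exact binomial test called 6 of the 33 accessible lipid gene regions lower, against 852 of all 8228 accessible regions. Among the accessible regions the ratio of sums was 0.679 (0.612 to 0.753), with 17 under 2/3 (51.5%, against 49.5% of all accessible regions) and 0 over 1.5 (against 3.57%). Among the not accessible ones it was 0.860 (0.722 to 1.02), with 10 under 2/3 (43.5%, against 47.8%) and 4 over 1.5 (17.4%, against 13.3%). The 7 regions called in 1 of the comparisons lay at 6 genes (Scarb1, Elovl5, Elovl6, Acacb, Acadl and Soat1), and all 7 were accessible. Of all regions called lower, 87.4% in the mz and 78.8% in the inducible comparison were accessible. Elovl5 region 1 stayed past the threshold under both scalings. The other 6 calls were lost under each, with adjusted p from 0.0663 to 0.548 by the exact binomial test.

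**Figure D1:**
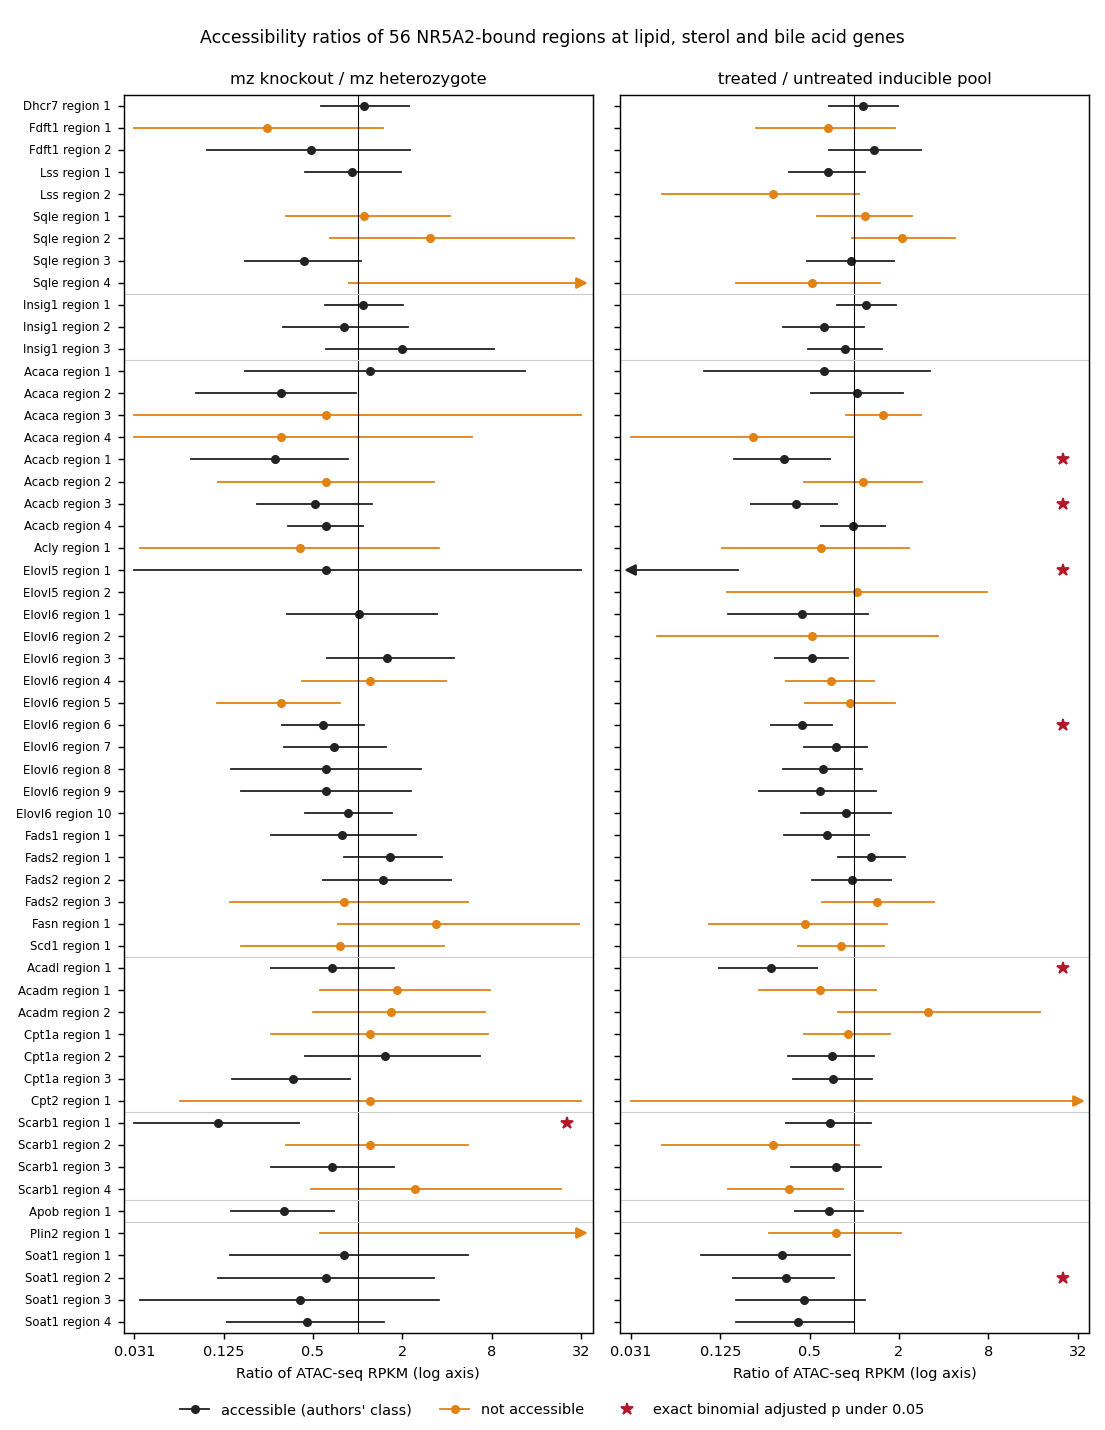
Ratios of ATAC-seq RPKM (log axis) of all 56 regions, grouped by role and gene, for the mz knockout over the mz heterozygote (left) and the treated over the untreated pool (right); points are ratios, lines are 95% counting intervals cut at the axis limits, arrowheads mark ratios of 0 or with a control of 0, and regions with no read in either column have no point. Stars mark 1 call at Scarb1 on the left and 6 calls at Acacb, Elovl5, Elovl6, Acadl and Soat1 on the right.

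Among the sterol synthesis enzymes 0 of the 9 regions passed the test in either comparison. Of all regions, 1.73% in the mz and 6.37% in the inducible comparison were called lower, so few calls could be met in 9. Each region with an interval had 1 inside it in both. Over the 9 regions the summed RPKM stood at 0.916 of the control (0.653 to 1.29) in mz knockouts and at 0.971 (0.771 to 1.22) in the treated pool. Scaled to the median of all regions, the 2 ratios lay above 1, at 1.14 and 1.24, and scaled to their sum they were 1.37 and 1.40. No intervals were computed for the scaled ratios. Dhcr7, which encodes the reductase that makes cholesterol from 7-dehydrocholesterol, had its 1 region over the start site with the AAGGTCA shown above (chromosome 7, 143822901 to 143823171). It had 9.68 RPKM in mz knockouts, against 8.81 RPKM in mz heterozygotes, and 5.45 RPKM in the treated pool, against 4.73 RPKM in the untreated pool. The ratios were 1.10 (0.564 to 2.22) and 1.15 (0.674 to 1.97), so that both knockout values lay slightly above their controls and within counting error of them. The region at the start of Lss, the lanosterol synthase gene (chromosome 10, 76531099 to 76531487), had 7.53 and 8.22 RPKM in mz knockouts and mz heterozygotes, and 3.57 and 5.39 RPKM in the treated and untreated pools. Its ratios were 0.916 (0.444 to 1.95) and 0.663 (0.365 to 1.18). A second Lss region, 7.25 kb downstream of the start, had no read in either mz column and had 0.510 RPKM in the treated pool, against 1.80 RPKM in the untreated pool.

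Sqle, the squalene epoxidase gene, had 4 regions outside the gene, 4.71 to 15.2 kb from it, with unlike ratios. Region 3, the only accessible one and the most strongly bound lipid region (chromosome 15, 59307918 to 59308077), had 3.59 RPKM in mz knockouts, against 8.22 RPKM in mz heterozygotes, a ratio of 0.436 (0.173 to 1.06). In the pools it had 3.23 RPKM treated and 3.43 RPKM untreated. Region 2 had 3.59 RPKM in mz knockouts, against 1.17 RPKM in mz heterozygotes, and 3.74 RPKM in the treated pool, against 1.80 RPKM in the untreated pool. It was among the 5 largest ratios with at least 10 reads in both comparisons, 3.05 (0.650 to 28.7) and 2.09 (0.969 to 4.76), and passed the test in neither. Region 4 had 7 reads in mz knockouts (2.51 RPKM) and 0 in mz heterozygotes, with 0.880 as the lower end of the 95% interval of the ratio. In the pools region 4 had 1.02 RPKM treated and 1.96 RPKM untreated. The 2 regions inside Fdft1, which encodes squalene synthase, had mz ratios of 0.244 and 0.488 on 7 and 9 reads. Their inducible ratios were 0.663 and 1.37, the second from 3.57 RPKM in the treated pool and 2.61 RPKM in the untreated pool.

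Insig1, whose product retains the SCAP-SREBP complex in the endoplasmic reticulum when sterols are plentiful, had 3 accessible regions upstream of its start and was the only SREBP system gene with any. Region 1, 28.4 kb upstream (chromosome 5, 28042904 to 28043214), had the highest mean of the 56 regions. It had 12.2 RPKM in mz knockouts, against 11.2 RPKM in mz heterozygotes, and 7.49 RPKM in the treated pool, against 6.20 RPKM in the untreated pool. Its ratios were 1.09 (0.606 to 2.03) and 1.21 (0.764 to 1.91). Region 3, 7.08 kb upstream, had 4.66 RPKM in mz knockouts, against 2.35 RPKM in mz heterozygotes, and 4.25 RPKM in the treated pool, against 4.90 RPKM in the untreated pool. Over the 3 regions the ratios of sums, mz and then inducible, were 1.13 (0.720 to 1.79) and 0.926 (0.685 to 1.25), and no region passed the test.

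Fatty acid synthesis and elongation genes, with 27 of the 56 regions, had 4 of the 6 inducible calls (14.8% of their regions, against 6.37% of all regions). Of these calls only that at Elovl5 was kept under the scalings. Over the 27 regions the mz ratio of sums was 0.758 (0.629 to 0.915), against 0.668 over all regions. The inducible one was 0.707 (0.622 to 0.802), against 0.694. Scaled to the median of all regions the 2 ratios were 0.947 and 0.901, and scaled to their sum 1.13 and 1.02. Acacb encodes the acetyl-CoA carboxylase of the mitochondrial surface, whose product malonyl-CoA inhibits carnitine palmitoyltransferase. Its 4 regions all had mz ratios under 2/3, from 0.278 to 0.611, against 49.2% of all regions. The ratio of sums was 0.520 (0.343 to 0.785), and none of the 4 passed the mz test. Regions 2 and 4 had equal reads in the mz columns, 4 and 26 in each, which gives 0.611. Scaled to the median of all regions these 2 ratios were 0.763, and scaled to their sum 0.913, no longer under 2/3. Relative to the median of all regions the Acacb ratios of sums were 0.650 in the mz and 0.807 in the inducible comparison, and relative to their sum 0.778 and 0.912. Region 1 (chromosome 5, 114142712 to 114143055) had 1.79 RPKM in mz knockouts, against 6.46 RPKM in mz heterozygotes, and 1.87 RPKM in the treated pool, against 5.55 RPKM in the untreated pool. The inducible ratio was 0.337 (0.154 to 0.682, adjusted p = 0.0239, exact binomial test). Region 3, inside the gene (chromosome 5, 114151491 to 114151863), had 3.95 and 7.64 RPKM in mz knockouts and mz heterozygotes. In the treated pool it had 2.38 RPKM, against 5.88 RPKM in the untreated pool (ratio 0.405, 0.202 to 0.770, adjusted p = 0.0455, exact binomial test). At both regions the knockout value lay below its control in each series. Region 4, 10.3 kb downstream of the listed start, had 9.33 RPKM in mz knockouts, against 15.3 RPKM in mz heterozygotes, while the pools were level at 5.79 RPKM treated and 5.88 RPKM untreated.

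Elovl6, which encodes the elongase that extends palmitate, had the most regions, spread from 42.5 kb upstream to 118 kb downstream of its start. RPKM was lower in the treated pool than in the untreated pool at all 10, and lower in mz knockouts than in mz heterozygotes at 6. Of all 16958 regions, 12620 were lower in the treated pool and 10896 in mz knockouts. Elovl6 region 2 had no read in either mz column, and the other 3 Elovl6 regions had mz ratios from 1.02 to 1.57. Summed over the 10, mz knockouts stood at 0.739 of their control (0.562 to 0.973) and the treated pool at 0.623 (0.511 to 0.757). Scaled to the median of all regions these were 0.923 and 0.794, with 5 and 8 of the 10 regions below 1. Scaled to the sum, the mz ratio turned to 1.11 and the inducible one was 0.897, with 4 and 6 regions below 1. Region 6, an intragenic region 17.2 kb downstream of the start (chromosome 3, 129549477 to 129549752), was the most accessible of the 10 in the untreated pool and in mz heterozygotes. It had 7.89 RPKM in mz knockouts, against 13.5 RPKM in mz heterozygotes (ratio 0.584, 0.310 to 1.10). It fell to 4.59 RPKM in the treated pool, against 10.3 RPKM in the untreated pool (ratio 0.447, 0.274 to 0.712, adjusted p = 0.0128, exact binomial test). Region 3, which overlaps the promoter printed above (chromosome 3, 129531707 to 129532369), had 6.46 RPKM in mz knockouts, against 4.11 RPKM in mz heterozygotes, and 3.57 RPKM in the treated pool, against 6.86 RPKM in the untreated pool. Its ratios lay on opposite sides of 1, at 1.57 (0.626 to 4.45) and 0.521 (0.293 to 0.900), and neither passed the test. At region 5 mz knockouts had 2.87 RPKM, against 9.40 RPKM in mz heterozygotes, on 8 and 16 reads. The ratio was 0.305 (0.113 to 0.756, adjusted p = 0.136, exact binomial test) and was not called. The treated pool had 3.06 RPKM there, against 3.26 RPKM in the untreated pool.

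**Figure D2:**
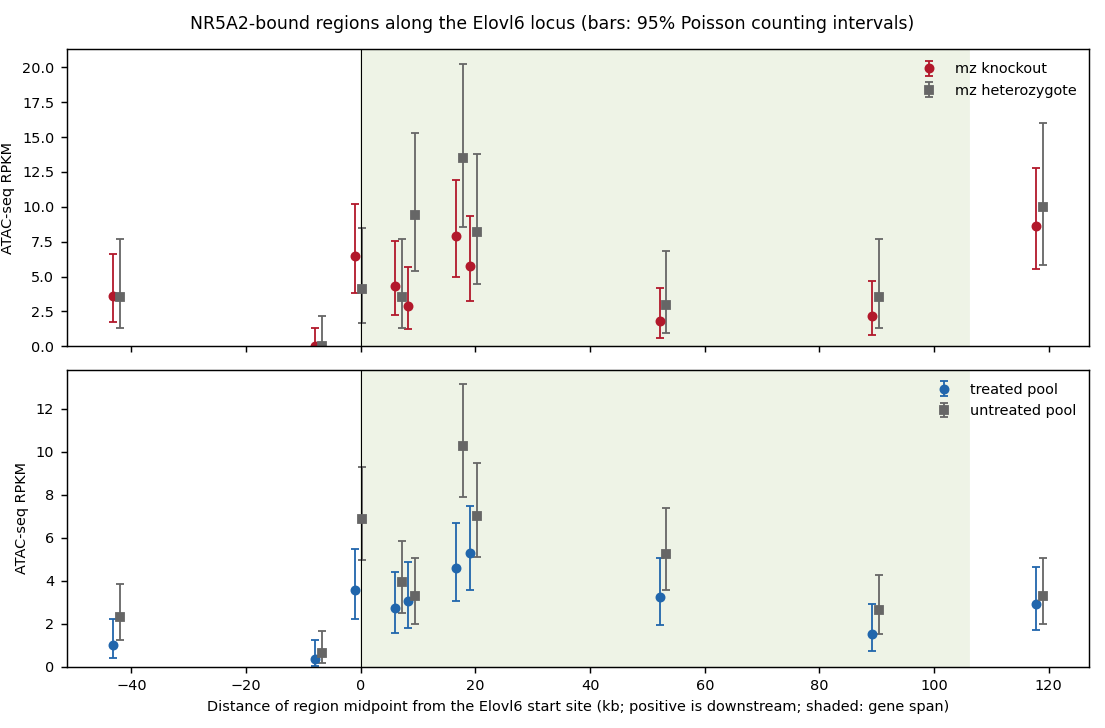
ATAC-seq RPKM of the 10 Elovl6 regions against the distance of each midpoint from the start site in kb, with the mz columns above and the inducible pools below; circles are the knockout or treated column, squares its control, bars 95% Poisson counting intervals, and shading the gene span. The treated pool lies below the untreated pool at every region, with the largest gap 17.2 kb downstream (4.59 and 10.3 RPKM), before any scaling. The mz knockout lies above the heterozygote at 3 regions, among them the promoter (6.46 and 4.11 RPKM, 95% interval of the ratio 0.626 to 4.45).

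Elovl5, a gene of polyunsaturated fatty acid elongation, had the lowest adjusted p of the lipid regions. Its region 1, inside the gene (chromosome 9, 77930493 to 77930684), had 0 reads in the treated pool, against 25 reads (4.08 RPKM) in the untreated pool, with a 95% interval of the ratio from 0 to 0.166 (adjusted p = 7.16e-05, exact binomial test). The mz columns had 1 read each there, 0.359 RPKM in knockouts and 0.587 RPKM in heterozygotes. More than 1 read was present in the untreated pool alone, and its part in the call was not tested.

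Acaca, which encodes the cytosolic acetyl-CoA carboxylase, had 4 regions, none of them called. Region 2, within 1 kb of an end of Gm11437 (chromosome 11, 84149028 to 84149443), had 1.79 RPKM in mz knockouts, against 5.87 RPKM in mz heterozygotes, and 3.06 RPKM in the treated pool, against 2.94 RPKM in the untreated pool. Region 3 had 1 read in each mz column, with 5.62 RPKM in the treated pool, against 3.59 RPKM in the untreated pool (1.56, 0.885 to 2.82). Region 4 had 1 and 2 reads in mz knockouts and mz heterozygotes, with 0.340 RPKM in the treated pool, against 1.63 RPKM in the untreated pool (0.209, 0.0222 to 0.978). The most accessible Fads2 region, 28.6 kb from this desaturase gene (chromosome 19, 10129819 to 10130303), had 10.8 RPKM in mz knockouts, against 6.46 RPKM in mz heterozygotes, and 6.13 RPKM in the treated pool, against 4.73 RPKM in the untreated pool. The nearest 2 of the 3 Fads2 regions are 167 bases apart and may share reads. Region 3 had 1.43 and 1.76 RPKM in mz knockouts and mz heterozygotes, and 2.55 and 1.80 RPKM in the treated and untreated pools (1.42). Together the 3 had ratios of sums of 1.48 (0.876 to 2.60) and 1.19 (0.839 to 1.68), without a call. Fads1, a desaturase gene next to Fads2, had 1 region with 3.23 and 4.11 RPKM in mz knockouts and mz heterozygotes, and 2.89 and 4.41 RPKM in the treated and untreated pools. The region 1.81 kb from Fasn, the fatty acid synthase gene, had the largest mz ratio with at least 10 reads, 3.36 (0.733 to 31.2), on 11 reads in mz knockouts and 2 in mz heterozygotes. In the pools it had 0.681 RPKM treated and 1.47 RPKM untreated. Scd1, a stearoyl-CoA desaturase gene, and Acly, the ATP citrate lyase gene, had mz ratios of 0.763 and 0.407 and inducible ratios of 0.816 and 0.596, each without a call.

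Of the genes of fatty acid oxidation, Acadl had the 1 call. It encodes the long-chain acyl-CoA dehydrogenase of mitochondria, and its region lay 4.61 kb upstream of the start (chromosome 1, 66867790 to 66868043). The region fell to 1.70 RPKM in the treated pool, against 6.20 RPKM in the untreated pool (ratio 0.274, 0.122 to 0.561, adjusted p = 0.00531, exact binomial test). Among mz embryos it had 3.95 RPKM in knockouts and 5.87 RPKM in heterozygotes (0.672, 0.259 to 1.76). Acadm, the medium-chain enzyme gene, had 2 not accessible regions. Region 1 had 4.30 and 2.35 RPKM in mz knockouts and mz heterozygotes (1.83), and 1.53 and 2.61 RPKM in the treated and untreated pools (0.586). Region 2 had 3.95 and 2.35 RPKM in mz knockouts and mz heterozygotes (1.68), and 9 and 3 reads in the treated and untreated pools (3.13, 0.780 to 18.0). Cpt1a encodes the carnitine palmitoyltransferase of the outer mitochondrial membrane. Its most accessible region, inside the gene (chromosome 19, 3374291 to 3374665), had 3.23 RPKM in mz knockouts, against 8.81 RPKM in mz heterozygotes (0.366, 0.141 to 0.894, adjusted p = 0.242, exact binomial test). The pools had 3.40 RPKM treated and 4.73 RPKM untreated there. Cpt1a regions 1 and 2 had mz ratios of 1.22 and 1.53, above 1, and inducible ratios of 0.900 and 0.709. Over the 3 Cpt1a regions the ratios of sums were 0.694 (0.375 to 1.29) and 0.768 (0.534 to 1.10). The 1 Cpt2 region had at most 2 reads in any column.

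Scarb1, the gene of the high-density lipoprotein receptor, had the 1 mz call. Its region 1, 30.4 kb outside the gene (chromosome 5, 125246439 to 125246903), had 3 reads in mz knockouts and 16 in mz heterozygotes, 1.08 against 9.40 RPKM (ratio 0.114, 0.0214 to 0.400, adjusted p = 0.0112, exact binomial test). The pools had 2.89 RPKM treated and 4.24 RPKM untreated there (0.682, 0.347 to 1.30). The other 3 Scarb1 regions had mz ratios of 1.22, 0.672 and 2.44. In the inducible series the same 3 had ratios of 0.284, 0.758 and 0.363. Region 2 had 2.87 and 2.35 RPKM in mz knockouts and mz heterozygotes, and 0.510 and 1.80 RPKM in the treated and untreated pools. Region 4, 165 bases inside an end of the gene, had 2.87 RPKM in mz knockouts, against 1.17 RPKM in mz heterozygotes, and 1.36 RPKM in the treated pool, against 3.75 RPKM in the untreated pool. Scarb1 was not among the genes with a promoter window, so whether region 4 lies at its start was not examined. Apob, the gene of the structural apolipoprotein of low-density particles, had 1 region, 48.9 kb from the gene (chromosome 12, 8065624 to 8065805). It had 3.95 RPKM in mz knockouts, against 12.3 RPKM in mz heterozygotes (0.320, 0.139 to 0.694, adjusted p = 0.0730, exact binomial test), and 4.42 RPKM in the treated pool, against 6.53 RPKM in the untreated pool. The Apob adjusted p was 0.0335 when regions with fewer than 10 reads were left out and 0.0406 over accessible regions alone. It was 0.360 after scaling to the median of all regions and 0.716 after scaling to their sum (exact binomial test).

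Soat1, whose product esterifies cholesterol in the endoplasmic reticulum, had 4 accessible regions with unscaled ratios below 1 in both series. The mz ratios ran from 0.407 to 0.814 and the inducible ratios from 0.326 to 0.456. Region 2, inside the gene (chromosome 1, 156459450 to 156459874), had 1.43 RPKM in mz knockouts, against 2.35 RPKM in mz heterozygotes, on 4 reads each. It fell to 1.70 RPKM in the treated pool, against 4.90 RPKM in the untreated pool (0.348, 0.152 to 0.730, adjusted p = 0.0424, exact binomial test). Region 4, 35.1 kb upstream, had 2.15 and 4.70 RPKM in mz knockouts and mz heterozygotes, and 1.36 and 3.26 RPKM in the treated and untreated pools. Over the 4 regions the ratios of sums were 0.543 (0.259 to 1.13) and 0.381 (0.242 to 0.586). Scaled to the median of all regions they were 0.678 and 0.486, and scaled to their sum 0.812 and 0.550. Plin2, a lipid droplet coat protein gene, had 1 region with 5 reads in mz knockouts and 0 in mz heterozygotes (lower end of the 95% interval of the ratio 0.559), and 1.36 and 1.80 RPKM in the treated and untreated pools.

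**Figure D3:**
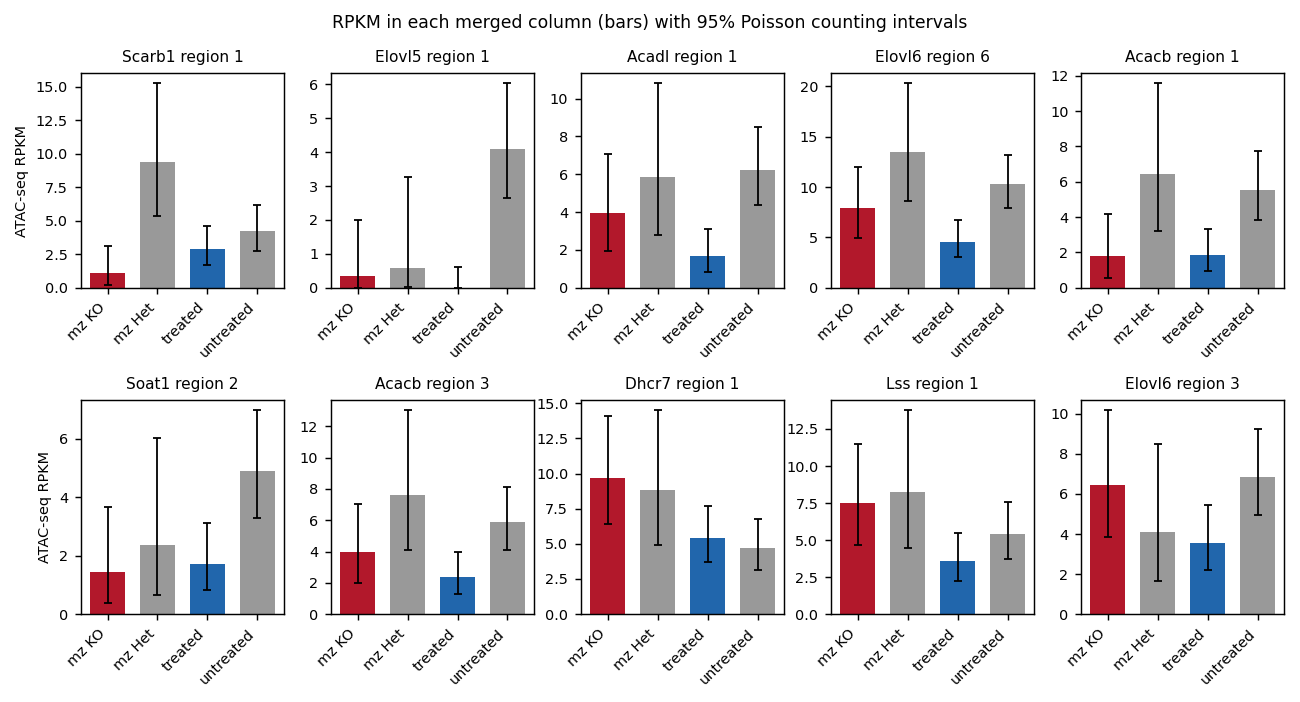
ATAC-seq RPKM (y axis, from 0) in the mz knockout, mz heterozygote, treated and untreated columns (bars, left to right) for the 7 called regions and the 3 regions at the printed promoters, with 95% Poisson counting intervals. Scarb1 region 1 is low in the mz knockout alone (1.08 RPKM), Elovl5 region 1 has 4.08 RPKM in the untreated pool and at most 1 read in the other columns, and the Dhcr7 promoter is level within each series.

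Across the 2 series, which share no control, 12 of the 56 regions (21.4%) had a ratio under 2/3 in both, against 27.1% of all regions. They lay at Acaca, Acacb, Acly, Elovl5, Elovl6, Fdft1 and Soat1. Several rested on few reads in mz knockouts and mz heterozygotes. These were 1 and 2 at Acaca region 4, 2 and 3 at Acly region 1, and 1 and 1 at Elovl5 region 1. Fdft1 region 1 had 2 and 5, Soat1 region 2 had 4 and 4, and Soat1 region 3 had 2 and 3. Equal reads in both mz columns give a ratio of 0.611, already under 2/3. In 6 regions (10.7%) the ratio was over 1.5 in 1 series and under 2/3 in the other, against 11.9% of all regions. Both ratios exceeded 1.5 at 2 of the 56, Acadm region 2 and Sqle region 2, against 441 of all 16958 regions. Neither of these is accessible, and their intervals all include 1. The authors' deposited table, which classes regions by the mean of both ratios, has 19 of the 56 as Down (33.9%, against 41.5% of all regions), 6 as Up (10.7%, against 16.9%) and 31 as Unchanged (55.4%, against 41.6%). An exact test of equal ratios in the series, adjusted over all regions, called 0 of the 56, against 0.0177% of all regions. At an unadjusted p of 0.05 it gave 5 of the 56 (8.93%), against 4.41% of all regions. These were Scarb1 regions 1 and 4, Elovl6 regions 3 and 5 and Sqle region 4. The smallest was at Scarb1 region 1 (unadjusted p = 0.00912, adjusted p = 0.991, exact test). A difference between the series was not detectable at this depth for any lipid gene region.

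**Figure D4:**
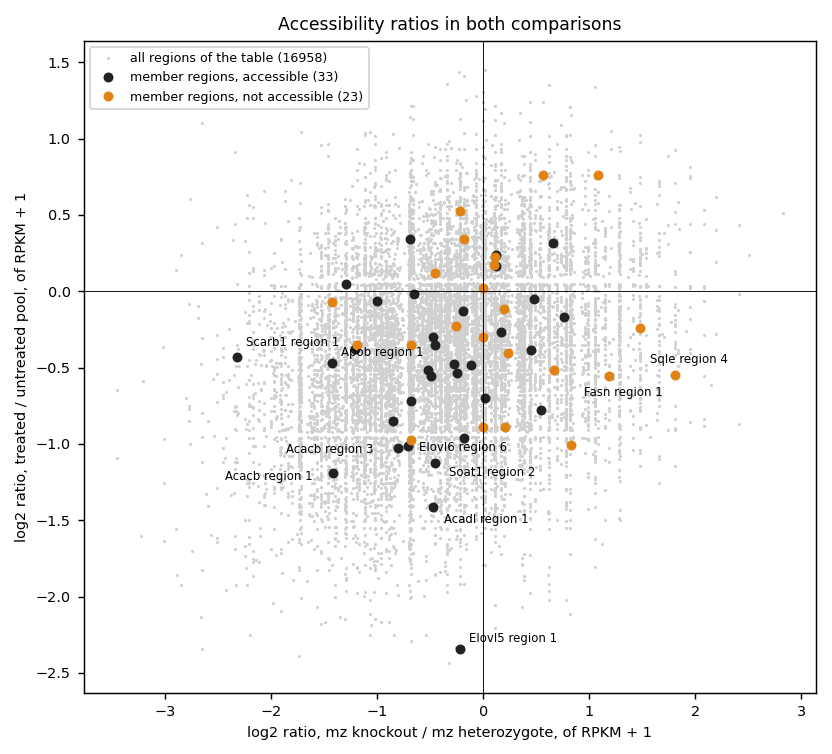
log2 ratio of RPKM + 1 of mz knockout over mz heterozygote (x axis) against that of treated over untreated pool (y axis), for all 16958 regions (grey) and for the 33 accessible and 23 not accessible lipid gene regions. The called regions at Acacb and Elovl6 lie low on both axes, Elovl5 region 1 low on the y axis only, and Fasn region 1 and Sqle region 4 high on the x axis only. Soat1 region 2 lies at −1.13 on the y axis and, with 4 reads in each mz column, at −0.46 on the x axis.

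A further 128 lipid genes outside the 49 had 94 regions at 54 genes. In the mz series 1 of the 94 was lower (1.06%, against 1.73% of all regions) and 0 were higher by the exact binomial test. In the inducible series 4 were lower (4.26%, against 6.37%) and 0 were higher. Ratios under 2/3 numbered 41 in each series (43.6%, against 49.2% of all regions in the mz and 48.6% in the inducible comparison). Ratios over 1.5 numbered 17 in the mz series (18.1%, against 20.3%) and 7 between the pools (7.45%, against 8.57%). The mz call lay inside Slc27a1, a fatty acid transporter gene, with 7.17 RPKM in mz knockouts, against 22.9 RPKM in mz heterozygotes (0.313, 0.173 to 0.550, adjusted p = 0.00589, exact binomial test), and 6.81 and 7.83 RPKM in the treated and untreated pools. The inducible calls lay at Pltp, the phospholipid transfer protein gene, Akr1d1, which encodes a reductase of bile acid synthesis, Fdx1, the ferredoxin gene of steroidogenic mitochondria, and Agpat2, an acyltransferase gene of triglyceride synthesis. Their inducible ratios ran from 0.130 at Fdx1 to 0.376 at Agpat2. In the mz series the ratio was 0.386 (0.171 to 0.837) at Agpat2 and between 0.763 and 1.02 at the other 3. The median log2 ratios over the 94 regions were −0.32 between the mz groups and −0.28 between the pools.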

How the data were processed

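ATAC-seq libraries of 23 samples fell into 4 groups by title and genotype label. The reads went through cutadapt, Bowtie2 and MACS2 on mm10, per the submitters' processing notes, which give no settings here, and transposase shifts, duplicate removal and merging of embryos are not given in the sources used here. The deposited table gives RPKM per group and the authors' ratio of knockout over control, equal to (knockout + 0.01)/(control + 0.01) within 5e-08. Each RPKM value was a whole multiple, within 1e-06, of 1 step per column, the same for short and long regions (0.359 RPKM per read in mz knockouts, 0.587 in mz heterozygotes, 0.170 treated, 0.163 untreated), so reads were recovered by division. Levels are thus not per length, and neighbouring regions may share reads. Duplicates left in would make intervals too narrow. With 3 reads as the limit that 0 allows, floors were 1.08, 1.76, 0.510 and 0.490 RPKM in that order.

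Reads were compared by exact binomial tests, adjusted over all 16958 regions at 0.05, and ratios have Clopper-Pearson 95% intervals conditional on the sum (Python 3.11.15, SciPy 1.17.1). The tests were checked on simulated data. Named regions were those called, the most accessible of each gene (12 in full), accessible ones within 1 kb of a gene end, and the 5 largest and smallest ratios with at least 10 reads. Genes, lists and tests were chosen with earlier results of these data known. Alternatives were pseudocounts, a read minimum, 2 scalings, 10 kb, the accessible class, each gene left out and an adjusted p of 0.1.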

Additional observations from a re-analysis of the deposited data

How the results depend on the processing

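No paired analysis was possible because each group has 1 merged column, and for the same reason no embryo could be left out. Scaling moved the most values. With the median log2 ratio of all regions set to 0, the ratio of sums of the 56 regions was 0.982 for the mz groups and 0.921 for the pools, the median log2 ratio 0.11 and −0.017, regions under 2/3 numbered 14 and 16, those over 1.5 numbered 17 and 8, and regions called lower 0 and 1. With the summed ratio set to 1, these were 1.18 and 1.04, 0.37 and 0.16, 11 and 14, 21 and 13, and 0 and 1. With at least 10 reads, 13 regions were under 2/3 in the mz series and 2 were called lower. With the accessible class alone, mz regions over 1.5 numbered 4 and 2 were called lower, and in the inducible series 17 were under 2/3 and 0 over 1.5. Within 10 kb, 0 were called lower in the mz series, and 2 were over 1.5 in the inducible series. At an adjusted p of 0.1, 2 were called lower in the mz series, and without Scarb1, 0. Pseudocounts of 0.1 and 0.01 gave inducible medians of −0.54 and −0.56. Fewer regions enter the class, distance and read alternatives. In the class and read alternatives p was also adjusted over the kept regions alone. Why the values moved was not tested. Leaving out the region shared with Gm11437, an alternative added after the data were seen, changed no call. Ratios over a control of 0 have no value under the alternatives. No region was called higher, and none differed between the series, under any alternative run. With any 1 gene left out, the ratio of sums lay between 0.748 and 0.826 for the mz groups and between 0.696 and 0.752 for the pools, with 4 to 6 inducible calls.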

Other observations

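Of the 27 listed genes without a region, 10 had regions within 50 kb that were nearer another gene, 34 regions in all, of which 13 were accessible. These were looked up after the assignment was known and are given as values. The mz ratio was under 2/3 in 18 of them (52.9%, against 49.2% of all regions) and over 1.5 in 2 (5.88%, against 20.3%). The inducible ratio was under 2/3 in 18 (52.9%, against 48.6%) and over 1.5 in 6 (17.6%, against 8.57%). The exact binomial test called 0 lower in the mz series (against 1.73%) and 1 lower in the inducible series (2.94%, against 6.37%), a region near Aif1 and 45.7 kb from Apom, with 0.340 RPKM in the treated pool and 2.61 RPKM in the untreated pool. A region 1.87 kb from Hmgcs1, which encodes the cytosolic synthase at the entry of the mevalonate pathway, had Nim1k as its nearest gene. It had 5.74 RPKM in mz knockouts, against 5.29 RPKM in mz heterozygotes, and 3.91 RPKM in the treated pool, against 4.24 RPKM in the untreated pool. Around Star, the gene of the protein that moves cholesterol into steroidogenic mitochondria, 8 regions lay within 50 kb and were nearer Lsm1, Bag4, Ash2l or Kcnu1. In each series 7 of the 8 had a ratio under 2/3, against 49.2% of all regions in the mz and 48.6% in the inducible comparison. The 8 held 31 reads in mz knockouts and 37 in mz heterozygotes, and 52 reads in the treated pool and 105 in the untreated pool. Their ratios of sums were 0.512 (0.307 to 0.847) and 0.516 (0.363 to 0.727), and none was called. The ratios over all regions, 0.668 and 0.694, lay inside these intervals. The 6 regions around Apoe had mz ratios from 0.611 to 1.22 and inducible ratios from 0.463 to 1.95, also without a call.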
